A study of Mus musculus with 22 samples.

Results

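Liver RNA was compared between 6 mice given an ST3GAL5 cargo under a promoter active in liver and 8 mice given another vector genome, 14 of the 22 livers in the series. The livers were taken by their group labels. All 14 came from male WT C57BL/6 pups injected intravenously with an AAV9 vector on postnatal day 1, and they were collected 36 hours later. In the first arm, 3 mice received rAAV9.CB.ST3GAL5, a codon-optimized human ST3GAL5 under the ubiquitous chicken β-actin (CB) promoter, and 3 received rAAV9.CB.ST3GAL5.E332K, the same name with the E332K substitution added. The reference arm held 4 mice given rAAV9.CB.EGFP, a fluorescent protein under the same promoter, and 4 given rAAV9.Syn1.ST3GAL5.miR122BS. The latter vector places ST3GAL5 under the neuronal synapsin promoter and carries sites for the hepatocyte microRNA miR-122. Livers of 4 mice given PBS and 4 given AAV9.empty, the capsid without a genome, are used below only to show levels.

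ST3GAL5 is GM3 synthase, the Golgi enzyme that adds sialic acid to lactosylceramide and so opens the ganglioside pathway. Secretory and membrane proteins pass through the endoplasmic reticulum (ER), where an excess of unfolded protein raises chaperone genes through ATF6 and XBP1 and the stress genes Ddit3 and Trib3 through ATF4. The liver also answers injury and cytokines with acute-phase proteins such as the serum amyloids and orosomucoids. The E332K vector is not described in the study's text, and RNA from the vectors is not analysed here because the tables hold mouse genes. The CB promoter is not limited to hepatocytes, and in whole liver fewer cells of a type and less RNA per cell cannot be told apart.

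Totals of the 14 libraries ran from 17164502 to 22769658 expected counts, and the 10 most abundant genes took 18% to 22.1% of a library. Summed hepatocyte genes, 42 in all, reached 95400 to 119205 counts scaled to library size (CPM) in rAAV9.CB.ST3GAL5 livers, 127148 to 143104 in E332K livers and 133997 to 165510 in the 8 reference livers. Gm47283, a gene annotated on the Y chromosome at chrY:90784738-90816464, had no count in all 3 rAAV9.CB.ST3GAL5 livers, in 0 E332K livers and in 5 of the 8 reference livers, and stood at 9.98 to 31.7 CPM in the others. The source of this difference was not tested.

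With both cargos pooled, 208 genes were higher and 66 lower than in the reference livers, of 14686 genes tested (edgeR quasi-likelihood F-test, adjusted p of at most 0.05 and at least a 2-fold change), which is 1.87% of them (1.42% higher and 0.449% lower). Without the 2-fold rule 678 were higher (4.62%) and 404 lower (2.75%). Taken singly against the same 8 livers, rAAV9.CB.ST3GAL5 changed 1140 genes (7.76%) and the E332K vector 144 (0.981%). The cargos differed from each other in 1155 genes under the same rule (7.86%) and in 4391 at adjusted p alone (29.9%). Gm47283 was absent in all 3 livers of the first cargo and present in all 3 of the other, so every difference between the cargos is confounded with whatever separates these livers in Gm47283, and the contributions cannot be told apart. Both cargos raised 31 genes and lowered 14, or 45 genes (0.306% of those tested, 0.211% higher and 0.0953% lower), and all 45 also passed in the pooled contrast. The other pooled calls comprised 195 genes that passed for rAAV9.CB.ST3GAL5 alone, 32 for E332K alone and 2, Neb and Spock2, for neither. Opposite directions were found for 2 genes with the 2-fold rule. F3 (tissue factor) was higher with rAAV9.CB.ST3GAL5 and lower with E332K, and Srms, a tyrosine kinase gene, was the reverse. At adjusted p alone 47 genes went in opposite directions, 3 higher and 44 lower with rAAV9.CB.ST3GAL5, beside 221 in the same direction. The cargo contrasts share the 8 reference livers, so their joint count is not independent evidence for each.

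The rest of the text concerns the 45 genes. The 6 cargo livers and the 8 reference livers did not overlap in CPM for 28 of the 31 genes that rose and 10 of the 14 that fell, against 2.01% of all genes tested (1.21% higher and 0.803% lower). The 45 were chosen by a test on these same livers, so this separation follows largely from the choice and is not further support. None of the 45 passed the test between the reference groups, a contrast in which 27 genes passed adjusted p alone (0.184%). At that share 0 of 45 is near what any set of this size would show. All Syn1 livers lay below all EGFP livers in Car5a and Car3, as given below. For all 45, the range of the 8 reference livers together overlapped that of the PBS and AAV9.empty livers. In the fallers Car5a, Car3, Raet1d and Selenbp2 this overlap came from the EGFP livers alone. Every Syn1 liver lay below every PBS and AAV9.empty liver in those genes by TPM, a level scaled for transcript length and depth. In Car5a the Syn1 livers held 2.05 to 3.6 TPM and the livers without a genome 5.49 to 7.24 TPM. When each cargo was set against each reference group within one fit with 4 levels, 23 of the risers and 2 of the fallers, Car5a and Slc22a7, passed all 4 contrasts (0.17% of genes tested, 0.157% higher and 0.0136% lower). Fitted with the Syn1 livers alone as reference, neither faller passed for E332K, where Car5a stood at -1.56 (edgeR adjusted p = 0.0514) and Slc22a7 at -2.62 (adjusted p = 0.0797). Replicate 3 of the E332K livers weighed most on the calls: without it 23 of the 45 genes remained called, 22 that rose and 1 that fell. Between pairs that share no library, 34 genes passed when rAAV9.CB.ST3GAL5 was set against the Syn1 livers and E332K against the EGFP livers, and 27 passed in the opposite pairing.

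**Figure D1:**
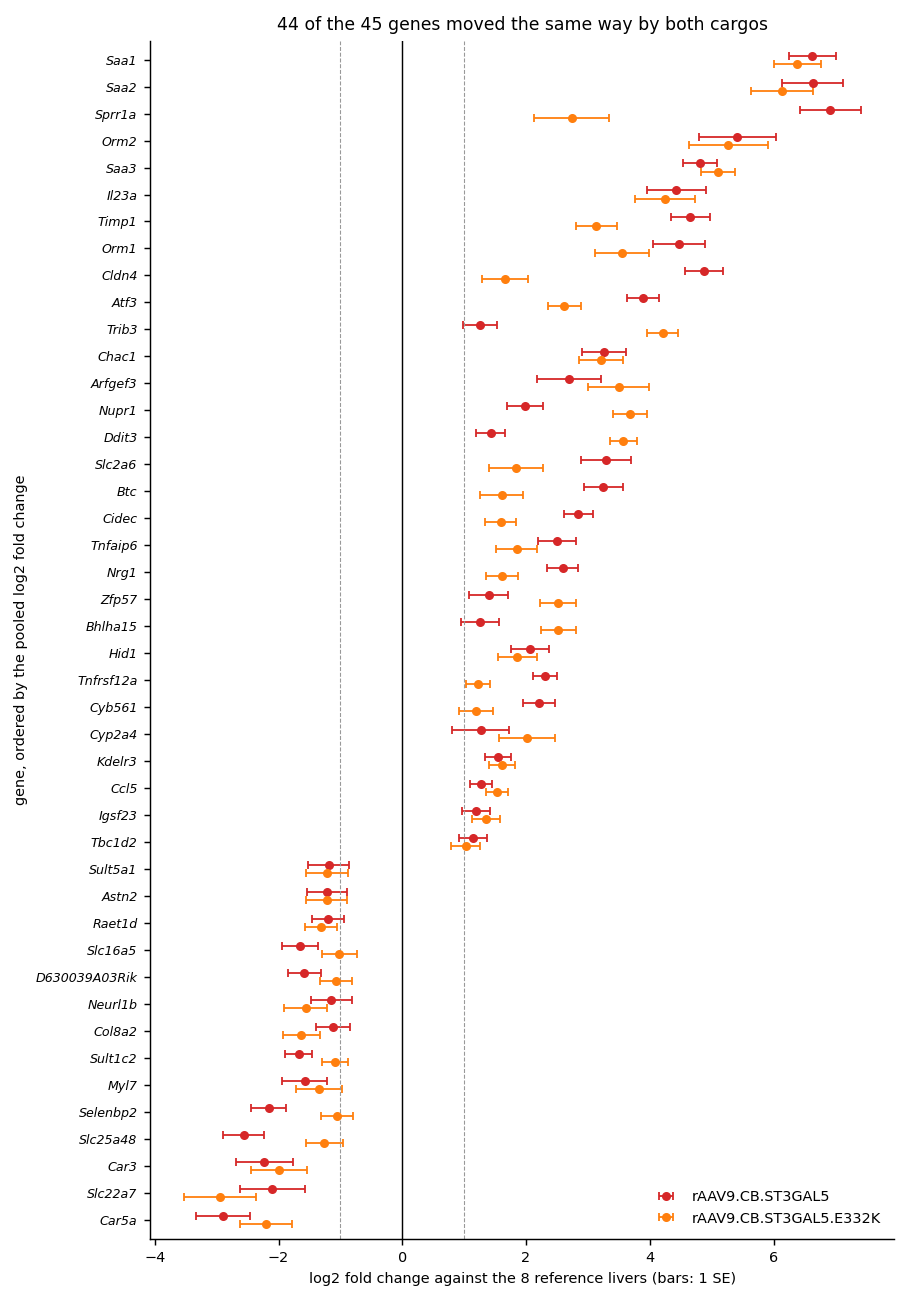
Log2 fold change (x axis) of 44 of the 45 genes (y axis, ordered by the pooled value) for rAAV9.CB.ST3GAL5 (red, n = 3) and rAAV9.CB.ST3GAL5.E332K (orange, n = 3) against the 8 reference livers, with 1 SE as bars and dashed lines at a 2-fold change. Saa1, Saa2, Orm2 and Saa3 lie above 4.8 for both cargos, whereas Sprr1a and Cldn4 lie farther to the right for rAAV9.CB.ST3GAL5 and Trib3 and Ddit3 for E332K.

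By the smaller of the cargos' changes, Saa1, Saa2, Orm2 and Saa3, all of the acute-phase list, came first. Serum amyloids are apolipoproteins that the liver releases in inflammation, and the orosomucoids are plasma carriers of the same response. Saa1 (chr7:46740497-46742980, GRCm38) measured 22.8, 79.8 and 30.1 CPM in the rAAV9.CB.ST3GAL5 livers and 45.2, 30.5 and 38 CPM in the E332K livers. The EGFP livers held 0.168, 0.575, 0.0519 and 1.01 CPM and the Syn1 livers 0.319, 0.487, 0.532 and 0.399 CPM of Saa1, so every cargo liver lay above every reference liver. The pooled log2 fold change was 6.51 (SE 0.37, n = 6 and 8, edgeR adjusted p = 6.2e-08), and the smaller of the cargos' changes was 83.5-fold. The cargos differed by 0.24 on the log2 scale for Saa1 (95% interval -0.57 to 1.06). Without replicate 2 of rAAV9.CB.ST3GAL5, that cargo's log2 change of 6.63 became 5.87.

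Saa2 stood at 6.29, 21 and 11.7 CPM with rAAV9.CB.ST3GAL5, at 13.3, 4.99 and 9.73 CPM with E332K and at 0 to 0.479 CPM in the reference livers. The highest reference value was EGFP replicate 4, without which the log2 changes of 6.63 and 6.13 became 7.44 and 6.93. Saa1 and Saa2 are neighbours on chromosome 7 and share 1151 of 2500 stretches of 31 bases, so reads may have been divided between them. Saa3, which shares few such stretches with any gene, reached 25.5, 62.3 and 42.4 CPM with rAAV9.CB.ST3GAL5 and 60.1, 39.0 and 63.2 CPM with E332K. Reference livers held 0.986 to 2.86 CPM of Saa3, and the groups did not overlap. In Saa3 the log2 changes were 4.81 (SE 0.27, adjusted p = 2.9e-08) and 5.11 (SE 0.27, adjusted p = 5.55e-09) in edgeR's test.

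Orm1, an orosomucoid gene, measured 23.1, 79.0 and 42.8 CPM with rAAV9.CB.ST3GAL5, 26.8, 22.5 and 28.2 CPM with E332K and 0.934 to 7.09 CPM in the reference livers. EGFP replicate 4 held that highest value, and without it the log2 changes rose from 4.47 and 3.55 to 5.08 and 4.14. Orm2 shares 205 of 745 stretches of 31 bases with Orm1 and was scarcer, at 0.823 to 4.48 CPM with rAAV9.CB.ST3GAL5 and 2.01 to 2.79 CPM with E332K, against 0 to 0.183 CPM in the reference livers. Log2 changes of Orm2 were 5.41 and 5.27, and the former became 4.70 without replicate 2 of rAAV9.CB.ST3GAL5. Hpx, the heme scavenger hemopexin, rose less, from a mean of 3145 CPM to 5800 CPM with rAAV9.CB.ST3GAL5 and 5450 CPM with E332K (log2 changes 0.90 and 0.79). These 6 genes were the acute-phase members that passed for both cargos at adjusted p alone, of 32 tested, where 1.08% of all genes rose and 0.422% fell under that rule. The list's median log2 change was 0.83 with rAAV9.CB.ST3GAL5 and 2.29e-05 with E332K, so the list as a whole did not shift with both. Pooled, it was 0.53, against 0.02 for all genes tested. With rAAV9.CB.ST3GAL5 alone 21 acute-phase genes rose and 2 fell, and with E332K alone 6 rose and 1 fell. Over all genes tested, 16.9% rose and 16.3% fell at adjusted p alone with rAAV9.CB.ST3GAL5, and 3.32% rose and 0.892% fell with E332K. Marker sums moved with these genes in the first group: neutrophil markers (19 genes) reached 2965 to 3298 CPM with rAAV9.CB.ST3GAL5, 2317 to 2866 with E332K and 1691 to 2893 in the reference livers. Their part in the result was not tested. Of the 19 markers, 14 rose with rAAV9.CB.ST3GAL5 and 0 with E332K, so 0 passed for both cargos, near the share of all genes.

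**Figure D2:**
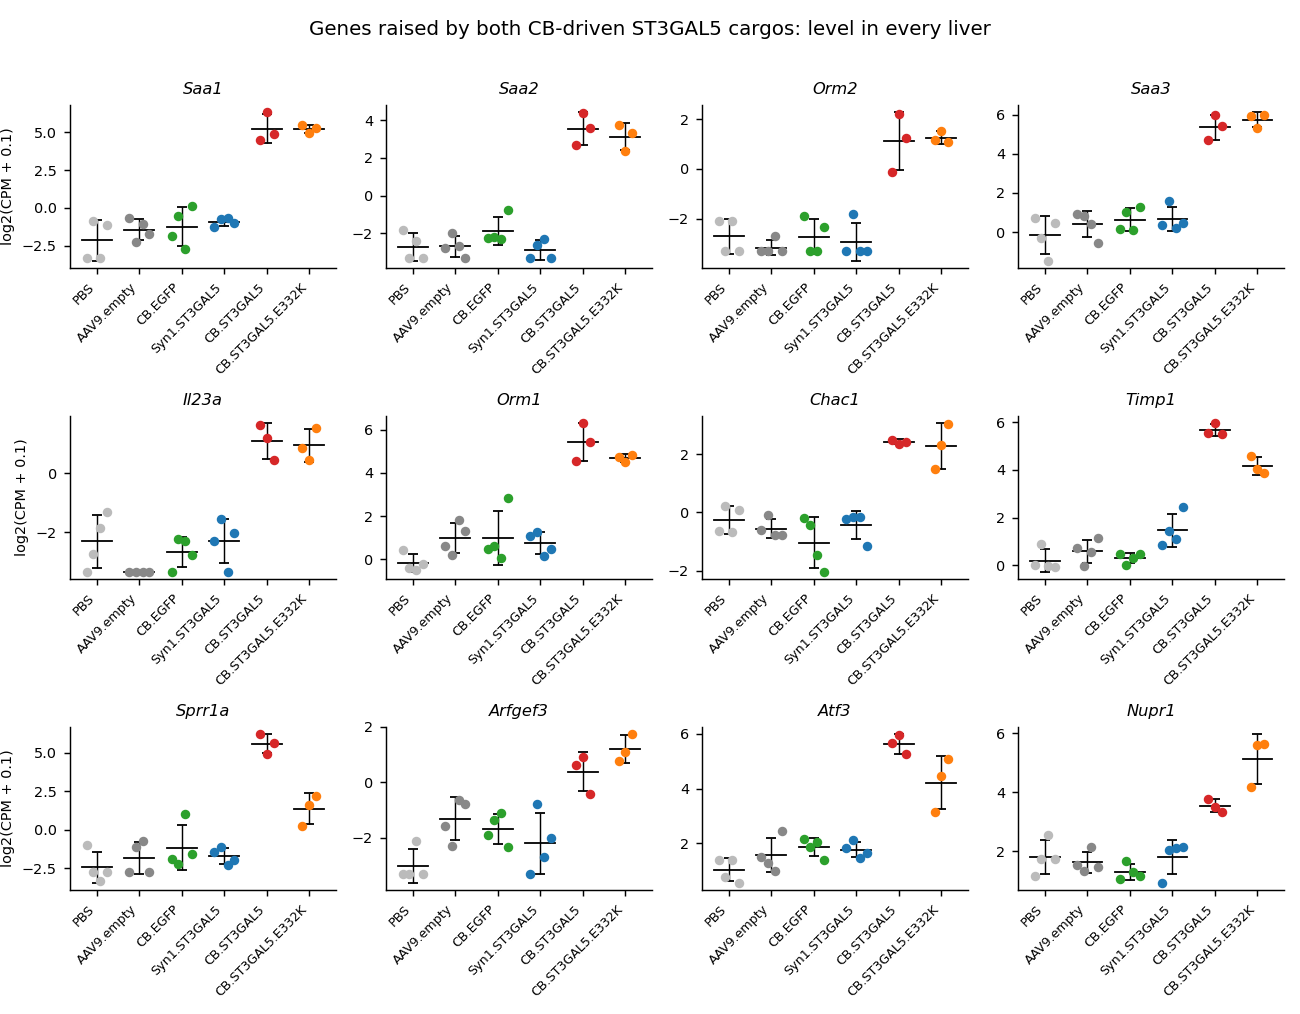
Level of the 12 genes with the largest joint increase in each liver (y axis, log2(CPM + 0.1)) by group (x axis, n = 3 or 4), with the mean as a line and 1 SD as bars. Saa1, Saa3 and Il23a were alike in both cargo groups (red and orange) and stood apart from PBS, AAV9.empty, CB.EGFP and Syn1.ST3GAL5, whereas Sprr1a and Timp1 were higher with CB.ST3GAL5 and Nupr1 with E332K.

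The upstream sequence of these genes was read from RefSeq promoters (GRCm38.p6, 250 bases before to 50 after a start), which matched 35 of the 45 genes. Letters of a C/EBP motif, TTGCNNAA on either strand, occurred in 6 of 28 promoters of risers (21.4%), in 2 of 11 of fallers (18.2%) and in 10.8% of all 32851 promoters of that length. They are shown because Saa1, Saa2, Saa3 and Orm2 all held them, with the match in capitals and each read along the gene's strand. Cidec and Cyp2a4 also held them, and Orm1 was not among the genes with a match. The windows of Saa1 and Saa2 are nearly the same sequence. A match describes letters and not binding. The sites lie at chr7:46743144-46743173 (minus strand) for Saa1, chr7:46751639-46751668 (plus) for Saa2, chr7:46715757-46715786 (minus) for Saa3 and chr4:63362318-63362347 (plus) for Orm2.
Saa1: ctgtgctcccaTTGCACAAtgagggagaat
Saa2: ctgtgctcccaTTGCACAAtgagggaaaat
Saa3: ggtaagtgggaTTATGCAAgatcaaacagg
Orm2: gagagaacattTTGCGCAAgacatttccca

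Among cytokine genes, Il23a and Ccl5 rose with both cargos. Il23a encodes the p19 subunit of interleukin-23 and was nearly absent elsewhere. It measured 2.95, 2.19 and 1.25 CPM with rAAV9.CB.ST3GAL5, 1.69, 1.25 and 2.80 CPM with E332K, and 0 to 0.244 CPM in the 8 reference livers. The pooled log2 change of Il23a was 4.34 (SE 0.43, edgeR adjusted p = 6.57e-05), and no reference liver reached a cargo liver. The cargos differed by 0.18 (95% interval -0.85 to 1.22). Ccl5, a chemokine for T cells and monocytes, measured 16.6, 14.1 and 18.2 CPM with rAAV9.CB.ST3GAL5 and 25.5, 19.1 and 14.2 CPM with E332K, above the 4.89 to 8.92 CPM of the reference livers. The log2 changes of Ccl5 came to 1.28 and 1.52. T and NK cell markers (18 genes) summed to 109 to 120 CPM with rAAV9.CB.ST3GAL5, 62.4 to 96.7 with E332K and 42.7 to 69.6 in the reference livers. Of the 13 markers tested, 8 rose with rAAV9.CB.ST3GAL5 (16.9% of all genes did at adjusted p alone). For both cargos 0 passed, which for a list of this size is near the share of all genes (1.08% higher and 0.422% lower). The part of these markers in the Ccl5 values was not tested.

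Il23a and Ccl5 were the members of the cytokine and chemokine list that rose with both cargos. Of 26 cytokine and chemokine genes tested, 21 rose with rAAV9.CB.ST3GAL5 and 2 with E332K. Over all genes tested, 16.9% rose with rAAV9.CB.ST3GAL5, 3.32% with E332K and 1.08% with both at adjusted p alone. Tnf measured 5.81, 18.1 and 3.56 CPM with rAAV9.CB.ST3GAL5 but 0.498, 0.898 and 0.426 CPM with E332K, against 0.671 to 2.01 CPM in the reference livers. The cargos differed in Tnf by 3.90 on the log2 scale (edgeR adjusted p = 0.000186), in Il1a by 1.95 (adjusted p = 0.000489), in Ccl2 by 5.54 (adjusted p = 2.89e-05) and in Ccl3 by 3.63 (adjusted p = 0.000187). Without replicate 2 of rAAV9.CB.ST3GAL5, the highest of the 3 for these genes, the differences in Tnf, Ccl2 and Ccl3 were 2.92, 4.42 and 2.85. All 16 genes of the NF-kB list and 29 of 38 interferon-stimulated genes rose with rAAV9.CB.ST3GAL5 in edgeR's test. With E332K 0 of either list passed, which for lists of this size is near the share of all genes. Without replicate 2 of rAAV9.CB.ST3GAL5, 3 interferon-stimulated genes rose with that cargo and 13 fell with E332K.

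Stress genes downstream of ATF4 formed the next group. Chac1, which degrades glutathione, rose alike with both cargos. It measured 5.57, 4.98 and 5.30 CPM with rAAV9.CB.ST3GAL5 and 2.69, 4.84 and 8.15 CPM with E332K, against 0.144 to 0.798 CPM in the reference livers, with no overlap. Its log2 changes were 3.26 and 3.21 (SE 0.35 and 0.36), a difference of 0.04 (95% interval -0.85 to 0.94). Atf3, a transcription factor of the stress response, measured 50.8, 62.5 and 38.1 CPM with rAAV9.CB.ST3GAL5, 8.76, 21.8 and 33.5 CPM with E332K and 2.49 to 4.31 CPM in the reference livers. The groups did not overlap, and Atf3 was higher with rAAV9.CB.ST3GAL5 than with E332K by 1.27 (adjusted p = 0.00766). Of the 24 immediate-early genes tested, Atf3 was the single one to rise with both cargos, while 22 rose with rAAV9.CB.ST3GAL5. Over all genes tested these shares were 1.08% and 16.9% at adjusted p alone.

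Ddit3, which encodes the transcription factor CHOP, ran the other way. It measured 33.0, 22.3 and 27.3 CPM with rAAV9.CB.ST3GAL5 and 67.7, 126 and 178 CPM with E332K, both above the 7.37 to 15.2 CPM of the reference livers. The log2 changes of Ddit3 were 1.43 (SE 0.23) and 3.57 (SE 0.22), which differed by -2.14 (edgeR adjusted p = 0.000122). Its gene overlaps Mars on the other strand, and the library kit did not keep the strand. Trib3, a pseudokinase induced by CHOP, measured 10.4, 12.7 and 7.57 CPM with rAAV9.CB.ST3GAL5, 36.0, 90.4 and 113 CPM with E332K and 3.47 to 7.02 CPM in the reference livers. Nupr1, a small stress protein of the nucleus, measured 13.6, 11.3 and 9.95 CPM, then 17.7, 48.2 and 48.8 CPM, against 1.81 to 4.33 CPM. In both genes all livers of the E332K group lay above all livers of the other cargo group, and the cargos differed by -2.94 and -1.70 (adjusted p = 3.16e-05 and 0.00198). Of 31 ATF4 and CHOP targets tested, 5 passed for both cargos, with Slc3a2, an amino acid transporter subunit, as the fifth at log2 changes of 0.49 and 0.45. The list's median log2 change was 0.28 with rAAV9.CB.ST3GAL5, 0.21 with E332K and 0.26 pooled. Over all genes tested, 1.08% rose with both cargos at adjusted p alone. The 4 genes other than Slc3a2 remained called in every fit that left out 1 library, whereas Slc3a2 lost its call for rAAV9.CB.ST3GAL5 without replicate 2 of that group (0.28) and for E332K in 6 fits (0.39 to 0.48).

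Letters of the composite ATF4 and C/EBP motif, TGATGNAA on either strand, occurred in 5 of the 28 promoters of risers (17.9%), in 0 of 11 of fallers and in 3.97% of all promoters of the same length. They are printed because 4 of the 5 genes, Atf3, Chac1, Trib3 and Nupr1, belong to the stress genes described here. The windows lie at chr1:191183425-191183454 (minus) for Atf3, chr2:119351038-119351067 (plus) for Chac1, chr2:152344028-152344057 (minus) for Trib3, chr7:126625562-126625591 (minus) for Nupr1 and chr7:19953622-19953651 (minus) for Igsf23, an immunoglobulin superfamily gene.
Atf3: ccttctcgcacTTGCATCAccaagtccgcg
Chac1: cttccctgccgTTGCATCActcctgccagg
Trib3: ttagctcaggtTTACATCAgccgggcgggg
Nupr1: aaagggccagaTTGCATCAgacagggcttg
Igsf23: gagccaggagtTGATGCAAaagcaagagga
The AP-1 motif TGANTCA was found in 8 of the 28 promoters (28.6%; 7.81% of all), those of Arfgef3, Cidec, Cldn4, Ddit3, Orm2, Sprr1a, Tnfaip6 and Zfp57. An NF-kB motif was found in 1 (3.57%; 1.2% of all), that of Bhlha15, and the ER stress response element in 1 (3.57%; 0.119% of all), that of Zfp57. CAAAGTCCA, for HNF4, was found in none of the promoters of risers or fallers (0.475% of all).

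ER chaperone genes rose mainly with E332K. Of 29 tested, 23 rose with E332K and 13 with rAAV9.CB.ST3GAL5, and 9 passed for both. Over all genes tested these shares were 3.32%, 16.9% and 1.08% at adjusted p alone. The list's pooled median log2 change was 0.89, and 23 of its genes were lower with rAAV9.CB.ST3GAL5 than with E332K by test (15.2% of all genes were). Creld2, a chaperone of the ER, measured 55.8, 84.9 and 35.1 CPM with rAAV9.CB.ST3GAL5, 343, 524 and 695 CPM with E332K and 30.5 to 38.1 CPM in the reference livers. Creld2 thus changed by 0.77 (SE 0.21, edgeR adjusted p = 0.00817) and 3.90 (SE 0.20, adjusted p = 2.68e-09). Sdf2l1, a partner of BiP, stood at 25.4, 30.2 and 19.6 CPM, then 152, 202 and 280 CPM, against 11.1 to 22 CPM. Dnajb9, another co-chaperone, stood at 63.0, 90.2 and 59.9 CPM, then 117, 188 and 177 CPM, against 25.2 to 49.3 CPM. For Dnajb9 all 6 cargo livers lay above the reference livers, whereas the rAAV9.CB.ST3GAL5 livers overlapped them in Creld2 and Sdf2l1. Hspa5, which encodes BiP, had log2 changes of 0.49 and 2.04. Without replicate 2 of rAAV9.CB.ST3GAL5, that cargo's call was lost in 8 of the 9 genes, Creld2 (0.39), Sdf2l1 (0.42), Hspa5 (0.29), Hyou1 (0.19), Manf (0.16), Syvn1 (0.23), Atf6 (0.30) and Sec24d (0.41). In that fit Dnajb9 alone passed for both, and 2 of the 29 rose with that cargo. Sdf2l1 (0.57) and Manf (0.46) also lost it without replicate 1, and Atf6 and Sec24d lost the E332K call without replicate 2 or 3 of E332K.

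**Figure D3:**
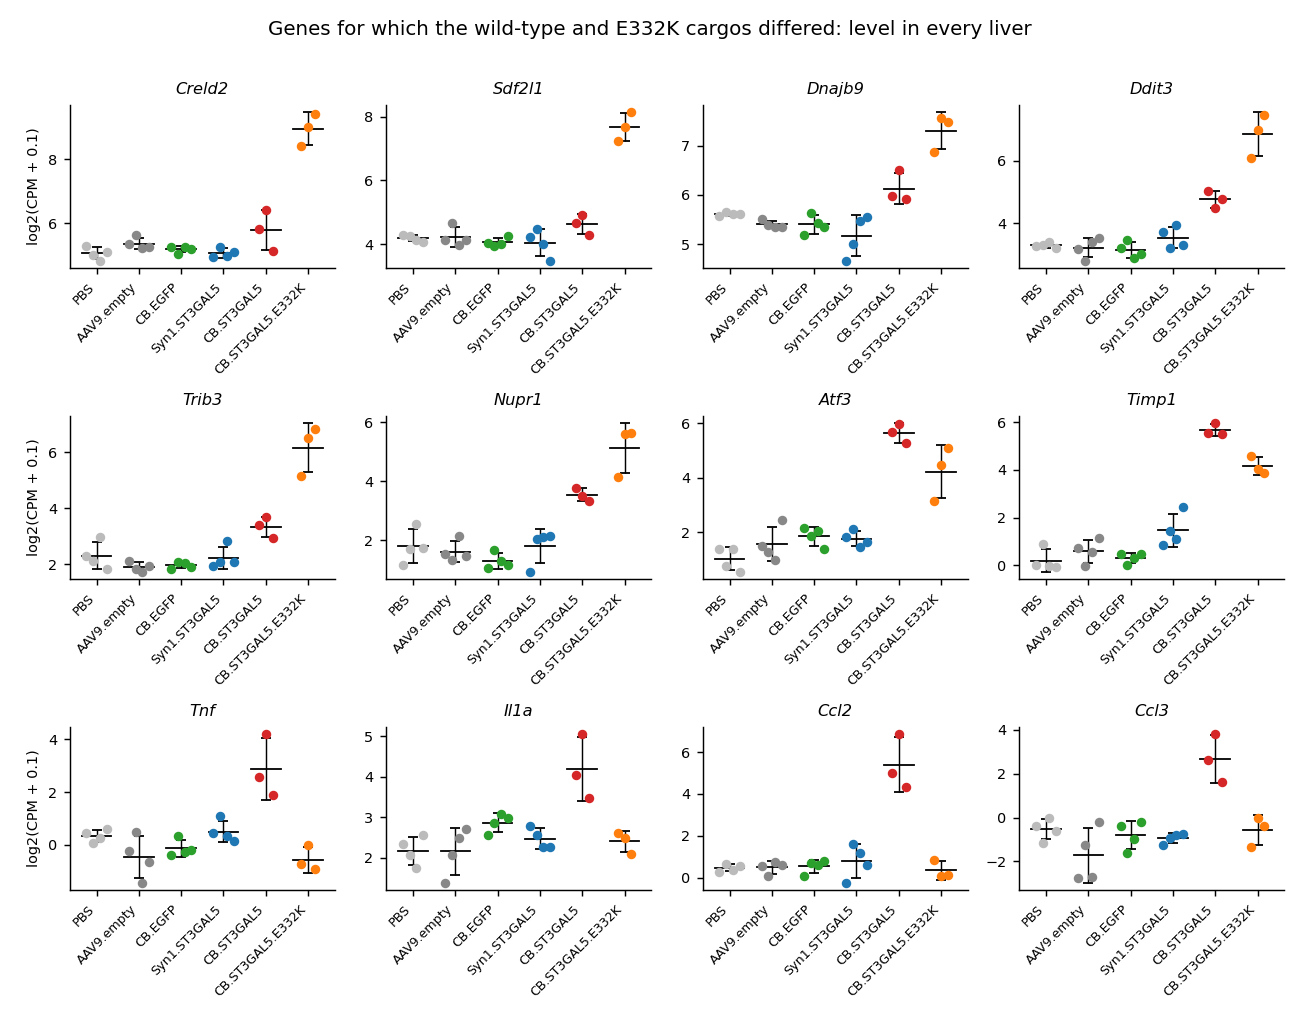
Level of 12 genes in each liver (y axis, log2(CPM + 0.1)) by group (x axis, n = 3 or 4), with the mean as a line and 1 SD as bars, for genes in which the cargos differed by edgeR's test. Creld2, Sdf2l1, Dnajb9, Ddit3, Trib3 and Nupr1 were highest with E332K (orange), and Atf3, Timp1, Tnf, Il1a, Ccl2 and Ccl3 were highest with CB.ST3GAL5 (red).

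Kdelr3, Hid1, Arfgef3 and Bhlha15 also rose with both cargos. Kdelr3, a receptor that returns escaped chaperones to the ER, measured 14.2, 16.6 and 9.79 CPM with rAAV9.CB.ST3GAL5, 10.3, 13.7 and 19.2 CPM with E332K and 3.40 to 6.28 CPM in the reference livers. Its log2 changes were 1.55 and 1.62, a difference of -0.07 (95% interval -0.64 to 0.51), and its gene overlaps Ddx17 on the other strand. Hid1, a Golgi protein of secretory granule formation, measured 16.4, 18 and 8.33 CPM, then 9.36, 13.0 and 15.3 CPM, against 1.54 to 6.52 CPM. Arfgef3, named for a guanine exchange domain of ARF proteins, was scarce, at 0.647 to 1.79 CPM and 1.59 to 3.22 CPM against 0 to 0.487 CPM. Bhlha15, the MIST1 transcription factor of secretory cells, had log2 changes of 1.26 and 2.52 and was higher with E332K (difference -1.26, adjusted p = 0.0168). Without replicate 2 of rAAV9.CB.ST3GAL5 the first change was 0.96, under 2-fold, and the difference did not pass without replicate 1 or 3 of rAAV9.CB.ST3GAL5 (-1.22 and -1.11) or replicate 3 of E332K (-0.99).

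Timp1, Sprr1a, Tnfrsf12a and Cldn4 rose with both cargos and were higher with rAAV9.CB.ST3GAL5 than with E332K by test. Timp1, an inhibitor of matrix metalloproteinases, measured 46.8, 61.7 and 45.8 CPM with rAAV9.CB.ST3GAL5, 23.7, 16.5 and 14.4 CPM with E332K and 0.919 to 5.38 CPM in the reference livers. No livers overlapped between these groups. Its log2 changes were 4.66 (SE 0.32) and 3.14 (SE 0.33), a difference of 1.52 (edgeR adjusted p = 0.00695), and the gene lies within Syn1 on the other strand. Sprr1a, a cornified envelope protein, measured 73.2, 30.9 and 48.8 CPM with rAAV9.CB.ST3GAL5 but 1.09, 2.99 and 4.56 CPM with E332K, against 0.106 to 1.92 CPM. EGFP replicate 3 held that highest reference value and overlapped the E332K livers, and without it the log2 changes of Sprr1a rose from 6.92 and 2.74 to 7.98 and 3.78. Tnfrsf12a, the receptor of TWEAK, measured 134, 139 and 90.8 CPM, then 42.0, 53.4 and 78.8 CPM, against 17.2 to 35.4 CPM. Cldn4, a tight junction protein of bile duct cells, measured 24.4, 13.8 and 23.5 CPM, then 1.09, 1.80 and 3.95 CPM, against 0.319 to 1.40 CPM. Cldn4 was the single member of 8 cholangiocyte markers tested to pass for both cargos (1.08% of all genes tested rose with both). The summed markers stood at 150 to 200 CPM with rAAV9.CB.ST3GAL5, 53.9 to 72.0 CPM with E332K and 46.0 to 95.4 CPM in the reference livers, and their part in the Cldn4 values was not tested. Without replicate 3 of E332K, that cargo's log2 change was 2.26 for Sprr1a, 1.03 for Cldn4 and 0.94 for Tnfrsf12a, and these calls were lost. Sprr1a was also lost without replicate 2 of E332K, at 2.69.

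The growth factor genes Nrg1 and Btc, ligands of ErbB receptors, had log2 changes of 2.59 and 3.25 with rAAV9.CB.ST3GAL5 and of 1.60 and 1.60 with E332K. Nrg1 measured 7.24 to 14.2 CPM and 3.43 to 6.14 CPM against 0.804 to 2.31 CPM, and Btc 3.76 to 9.07 CPM and 2.25 to 2.37 CPM against 0.287 to 1.22 CPM, without overlap. The Btc call for E332K was lost without its replicate 3, at 1.58, where adjusted p rose. The higher level of Nrg1 with rAAV9.CB.ST3GAL5 (0.99) did not pass without replicate 1 of that group (0.66) or replicate 1 of E332K (0.76). Tnfaip6, an inflammation-induced hyaluronan-binding protein, had log2 changes of 2.50 and 1.85 and lost its E332K call at 1.55 without replicate 3.

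The remaining risers had varied roles. Cidec, a lipid droplet protein, measured 26.9, 17.2 and 21.6 CPM with rAAV9.CB.ST3GAL5, 6.07, 11.7 and 10.2 CPM with E332K and 2.01 to 4.95 CPM in the reference livers, without overlap, and remained called in every fit that left out 1 library. Slc2a6, a hexose transporter of lysosomes, had log2 changes of 3.29 and 1.84, which became 2.32 without replicate 2 of rAAV9.CB.ST3GAL5 and 1.35, no longer called, without replicate 3 of E332K. The higher level of Slc2a6 with rAAV9.CB.ST3GAL5 did not pass without replicate 2 of that group or replicate 1 or 2 of E332K. Cyb561, a transmembrane electron carrier, changed by 2.21 and 1.19, and its E332K call was lost without replicate 2 or 3 of that group (1.18 and 1.07). Cyp2a4, a steroid hydroxylase that shares 955 of 1708 stretches of 31 bases with Cyp2a5, ranged over 3.29 to 17 CPM, 10.9 to 33.0 CPM and 2.18 to 9.14 CPM, so the arms overlapped. Its adjusted p for rAAV9.CB.ST3GAL5 was 0.0465, its call held in 4 of the 14 fits that left out 1 library, and its E332K change of 2.01 was 1.35 without replicate 3. Zfp57, a zinc finger protein of genomic imprinting, changed by 1.39 and 2.51. Igsf23 changed by 1.19 and 1.35 and fell under 2-fold for rAAV9.CB.ST3GAL5 (0.91) without its replicate 3. Tbc1d2, a regulator of Rab7, lay just inside the 2-fold rule at 2.03-fold, as did Slc16a5 among the fallers, and 2200002D01Rik (1.99-fold) and Sgsm1 (1.96-fold) lay just outside.

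The 14 genes that fell included carbonic anhydrases, sulfotransferases and membrane transporters. Car5a, the mitochondrial carbonic anhydrase that supplies bicarbonate to the urea cycle, measured 0.436, 0.299 and 0.769 CPM with rAAV9.CB.ST3GAL5 and 0.946, 0.848 and 0.730 CPM with E332K. The EGFP livers held 3.75, 6.09, 5.14 and 6.14 CPM and the Syn1 livers 3.40, 2.56, 1.97 and 2.14 CPM of Car5a, so the arms did not overlap and the Syn1 livers lay below the EGFP livers. Its log2 changes were -2.90 (SE 0.44, edgeR adjusted p = 0.000132) and -2.20 (SE 0.42, adjusted p = 0.00474), and the latter call was lost without replicate 3 of E332K (-2.11). Slc22a7, the organic anion transporter OAT2, measured 0.242, 2.24 and 0.647 CPM, then 0.746, 0.599 and 0.365 CPM, against 1.54 to 7.24 CPM. Replicate 2 of rAAV9.CB.ST3GAL5 overlapped the reference livers, and without it that cargo's log2 change of Slc22a7 went from -2.10 to -3.29. Without replicate 3 of E332K the other change went from -2.95 to -2.73, no longer called. Car3, a cytosolic carbonic anhydrase, measured 4.74, 12 and 7.32 CPM, then 12.6, 7.88 and 8.09 CPM, against 37.3 to 78.5 CPM in EGFP and 12 to 30.1 CPM in Syn1 livers. Thus 1 E332K liver overlapped 1 Syn1 liver, and the E332K change of -1.99 lost its call without replicate 2 or 3 (-1.87 and -1.89).

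Slc25a48, a mitochondrial carrier, measured 1.45, 0.548 and 1.94 CPM with rAAV9.CB.ST3GAL5, 3.48, 3.09 and 3.47 CPM with E332K and 4.15 to 10.4 CPM in the reference livers, without overlap. It was lower with rAAV9.CB.ST3GAL5 by -1.31 (edgeR adjusted p = 0.0166), which did not pass without that group's replicate 2 (-0.97). Selenbp2, a selenium-binding protein that shares 1437 of 2422 stretches of 31 bases with Selenbp1, had log2 changes of -2.16 and -1.06 and overlapped between the arms. The sulfotransferases Sult1c2 and Sult5a1 fell by 1.68 and 1.19 on the log2 scale with rAAV9.CB.ST3GAL5 and fell by 1.09 and 1.22 with E332K. Slc16a5, a monocarboxylate transporter, measured 1.69, 1.69 and 3.28 CPM, then 2.24, 4.49 and 3.89 CPM, against 5.29 to 11.1 CPM.

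Col8a2, a collagen chain, measured 1.06, 1.44 and 1.42 CPM with rAAV9.CB.ST3GAL5, 1.19, 0.848 and 0.730 CPM with E332K and 1.77 to 3.91 CPM in the reference livers, and its log2 changes were -1.12 and -1.63. By TPM, replicate 3 of rAAV9.CB.ST3GAL5 stood at 1.9, above the 0.41 to 1 TPM of the reference livers. The Col8a2 call held in 11 of the 18 settings other than leaving out a library. It failed with the Syn1 livers alone as reference and in both pairings that share no library. Col8a2 was the single faller whose call held in all 14 fits that left out 1 library. The other 13 lost it without replicate 3 of E332K, where Raet1d, an NKG2D ligand that shares 945 of 1409 stretches of 31 bases with Raet1e, stood at -1.06, Sult1c2 at -0.99, Myl7, a muscle myosin light chain, at -0.99 and Sult5a1 at -0.998. Astn2, Neurl1b, D630039A03Rik, Slc16a5, Slc25a48 and Selenbp2 stood at -1.34, -1.41, -1.04, -1.09, -1.28 and -1.01 in that fit, where their adjusted p rose above 0.05. In the full fit the E332K adjusted p was 0.0473 for Astn2, 0.0488 for Myl7, 0.0499 for Sult5a1 and 0.0495 for Slc16a5, at the limit of the rule.

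**Figure D4:**
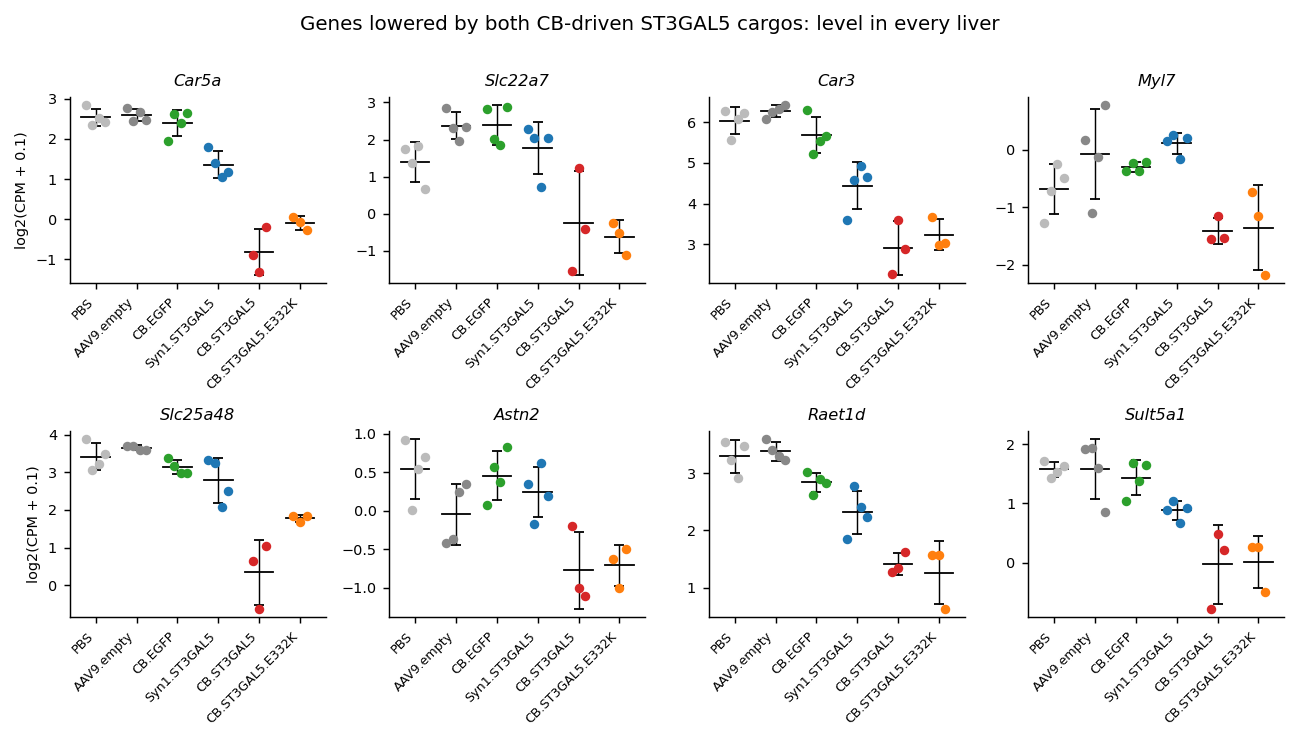
Level of the 8 genes with the largest joint decrease in each liver (y axis, log2(CPM + 0.1)) by group (x axis, n = 3 or 4), with the mean as a line and 1 SD as bars. Car5a and Slc25a48 did not overlap between the cargo livers (red and orange) and the CB.EGFP and Syn1.ST3GAL5 livers, and Car3 and Slc22a7 did.

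Beyond the 45 genes, most genes of the amino acid, cytochrome P450, bile acid, fatty acid and hepatocyte lists fell with rAAV9.CB.ST3GAL5. Of 60 genes that break down amino acids or act in the urea cycle, 55 fell with rAAV9.CB.ST3GAL5 and 5 with E332K. The 5 that fell with both were Kynu, Slc25a15, Aass, Bckdhb and Dbt. Over all genes tested, 16.3% fell with rAAV9.CB.ST3GAL5, 0.892% with E332K and 0.422% with both at adjusted p alone. The list's median log2 change was -0.90 with rAAV9.CB.ST3GAL5, -0.19 with E332K and -0.50 pooled. Slc25a15, the mitochondrial ornithine carrier, measured 76.6, 72.4 and 111 CPM with rAAV9.CB.ST3GAL5, 107, 93.6 and 117 CPM with E332K and 131 to 203 CPM in the reference livers. Kynu, which cleaves kynurenine, had log2 changes of -0.83 and -0.55, and Bckdhb, of branched-chain keto acid breakdown, of -0.46 and -0.62. Kynu lost its E332K call without replicate 2 or 3 of E332K (-0.48 and -0.55) and Slc25a15 without replicate 2 (-0.56). The count of 5, for both cargos as for E332K, was 1 without replicate 2 of E332K, 2 without its replicate 3, and 3 without its replicate 1, EGFP replicate 1, 2 or 4 or Syn1 replicate 1.

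Single genes passed in the other metabolic lists. Over all genes tested, 1.08% rose and 0.422% fell with both cargos at adjusted p alone, so a single gene says little about its list. Cyp2j5 fell and Cyp2a4 rose among 35 cytochrome P450 genes, Slc22a7 fell among 30 genes of bile acid handling and Angptl4, an inhibitor of lipoprotein lipase, rose among 34 genes of fatty acid oxidation and ketogenesis. The call of Angptl4 for E332K (log2 change 0.51, adjusted p = 0.0493) was lost in 11 of the 14 fits that left out 1 library, where the change was 0.40 to 0.52. Igf1, the growth factor that the liver secretes, fell among 41 hepatocyte genes. It measured 38.9, 57.2 and 43.1 CPM with rAAV9.CB.ST3GAL5 and 42.7, 32.0 and 24.6 CPM with E332K, below the 59.5 to 107 CPM of the reference livers. Igf1 changed by -0.82 and -1.32 on the log2 scale. Fdps, of cholesterol synthesis, rose by 0.49 and 1.40 on the log2 scale, and its first call was lost without replicate 1 or 2 of rAAV9.CB.ST3GAL5 (0.50 and 0.37). It alone passed for both cargos among 25 genes of that pathway, of which 4 rose and 3 fell with rAAV9.CB.ST3GAL5. With E332K 4 of those genes rose and 1 fell. In rAAV9.CB.ST3GAL5 livers alone, 26 P450 genes, 21 bile acid genes, 25 fatty acid genes and 30 hepatocyte genes fell (16.3% of all genes tested did). With E332K 1, 1, 0 and 1 fell (0.892% of all genes tested did). These E332K counts ranged over 1 to 2, 0 to 1, 0 and 1 to 3 when 1 library was left out.

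**Figure D5:**
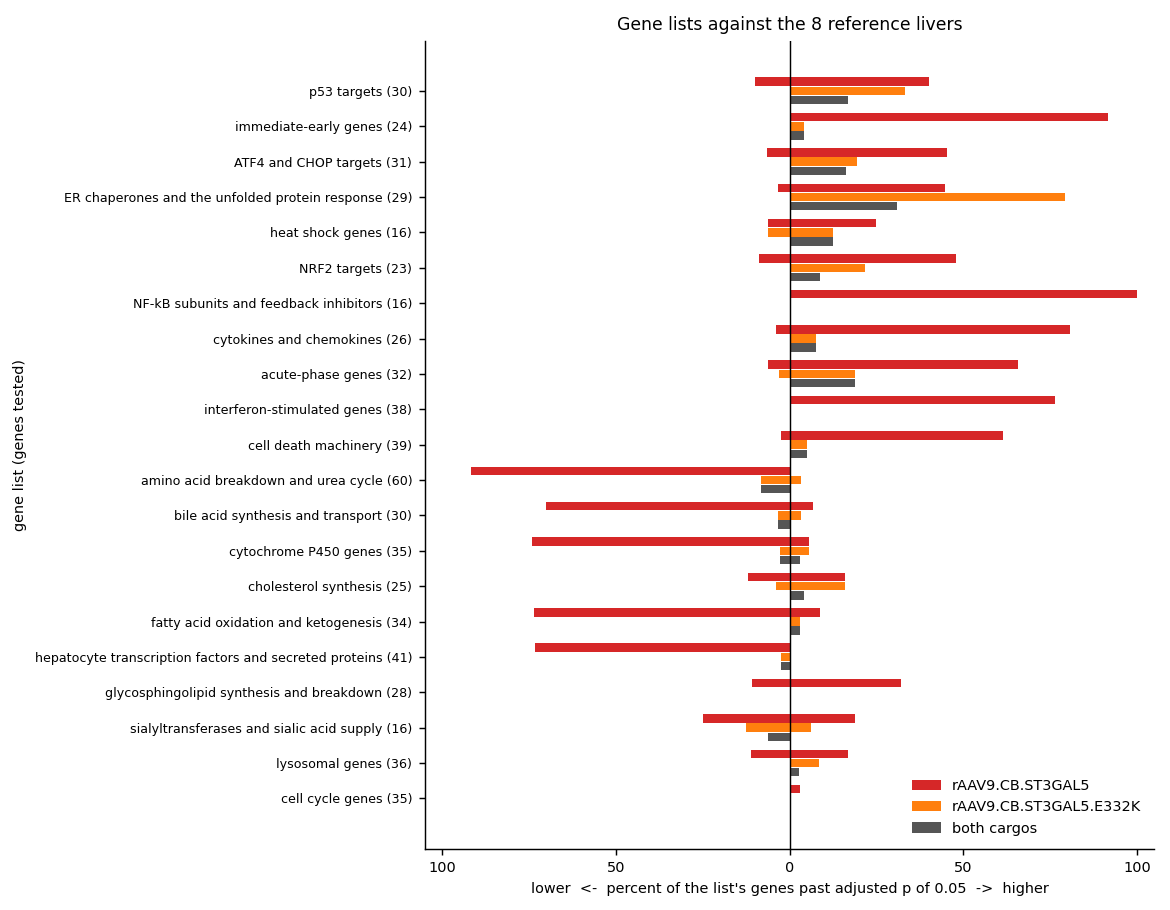
Percent of the tested genes of each list (y axis, number tested in parentheses) past an adjusted p of 0.05 against the 8 reference livers, to the right for higher and to the left for lower (x axis), with rAAV9.CB.ST3GAL5 in red, E332K in orange and genes that passed for both in grey. The ER chaperone list is longest for E332K (23 of 29), and for rAAV9.CB.ST3GAL5 the longest are the NF-kB list to the right (16 of 16) and the amino acid list to the left (55 of 60).

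Among 30 p53 targets, 5 passed for both cargos: Cdkn1a, Tnfrsf10b, Eda2r, Plk2 and Ddit4. Over all genes tested, 1.08% rose and 0.422% fell with both cargos at adjusted p alone. Counts of 1 or 2 genes in the lists below say little about those lists beside that share. Cdkn1a, the cell cycle inhibitor p21, measured 184, 196 and 204 CPM with rAAV9.CB.ST3GAL5 and 232, 208 and 276 CPM with E332K, against 122 to 180 CPM, without overlap. Cdkn1a changed by 0.47 and 0.74 on the log2 scale. In the livers without a vector genome Cdkn1a stood at 18.5 to 31.3 CPM, below all 8 reference livers. Tnfrsf10b stood at 0.961 to 2.30 CPM and Eda2r at 0 to 0.390 CPM in those livers, also below every reference liver. The p53 count of 5 was 1 (Cdkn1a) without replicate 3 of E332K, 2 without its replicate 2 or Syn1 replicate 1, and 3 without its replicate 1 or EGFP replicate 2, 3 or 4. The heat shock genes Hspa1b and Bag3 (of 16) and the NRF2 targets Srxn1 and Osgin1 (of 23) also passed for both. Hspa1b, which shares 1873 of 2769 stretches of 31 bases with Hspa1a, changed by 1.36 and 0.93, Bag3 by 0.82 and 1.05, Srxn1 by 1.34 and 0.85 and Osgin1 by 0.46 and 0.73. The NRF2 count was 0 without replicate 3 of E332K and 1 without its replicate 2 or replicate 1 or 3 of rAAV9.CB.ST3GAL5. Tnfrsf10b and Tnfrsf12a were the members of 39 cell death genes that passed for both, and the count was 1 without EGFP replicate 3, Syn1 replicate 1 or any E332K liver. Sqstm1, an autophagy adaptor, was the 1 of 36 lysosomal genes, at 365 to 465 CPM and 297 to 442 CPM against 180 to 258 CPM.

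The mouse homologue of the cargo changed little. St3gal5 measured 153, 115 and 181 CPM with rAAV9.CB.ST3GAL5, 175, 195 and 135 CPM with E332K and 160 to 195 CPM in the reference livers, and the arms overlapped. The pooled log2 change was -0.18 (SE 0.10, edgeR adjusted p = 0.290), with adjusted p of 0.0683 to 0.608 over the alternatives. None of 28 glycosphingolipid genes passed for both cargos. With rAAV9.CB.ST3GAL5 9 rose and 3 fell (5 without that group's replicate 3), and 0 passed with E332K. Over all genes tested, 16.9% rose and 16.3% fell with rAAV9.CB.ST3GAL5, and 3.32% rose and 0.892% fell with E332K. With both cargos 1.08% rose and 0.422% fell. Cmah, which makes the sialic acid Neu5Gc, was the 1 of 16 genes of sialic acid supply and transfer to pass for both, with log2 changes of -0.56 and -0.70. Its calls were lost without replicate 1 of rAAV9.CB.ST3GAL5 (-0.49) or replicate 3 of E332K (-0.50). None of 35 cell cycle genes passed for both, nor did any of the markers of Kupffer cells, B cells, endothelial, stellate or erythroid cells. For lists of this size that is near the share of all genes. With rAAV9.CB.ST3GAL5, 6 of 20 Kupffer cell and monocyte markers rose and 8 fell, and 4 of 16 stellate cell markers rose and 3 fell.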

How the data were processed

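Liver RNA-seq of 22 mice was read from the deposited tables, and 14 libraries entered the comparison. The authors trimmed reads with Trimmomatic, aligned them with STAR to mm10 and estimated expected counts per gene with RSEM. The deposited expected counts carry no scaling for depth. TPM, also deposited by the authors, is scaled for transcript length and depth and served as an alternative. The GENCODE release is not given in the sources used here. The tables hold 55291 genes, and 53292 names were found in GENCODE vM21 (GRCm38), which gave the positions.

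Expected counts, of which 5.69% of values were not whole, were rounded. edgeR 4.0.16 in R 4.3.3 was used with its quasi-likelihood F-test after filterByExpr and TMM scaling, and p-values of the 14686 genes kept were adjusted by Benjamini-Hochberg. The pooled contrast set 6 against 8 libraries, and a fit with 3 levels gave each cargo against the 8 and the difference between cargos. A fit with 4 levels separated the reference groups. Members had to pass an adjusted p of 0.05 and a 2-fold change for both cargos in the same direction, and gene lists were counted at adjusted p alone. CPM used TMM factors of all 22 libraries.

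The members and lists were chosen with earlier results of these data known. The text names the 12 risers and up to 10 fallers with the largest joint change, ranked by the smaller of the cargos' log2 changes among genes called in the pooled contrast, with arms that did not overlap in CPM and a mean of at least 1 CPM in the higher arm (Gm and Rik models last). It also names up to 3 genes per list with the smallest pooled adjusted p among those past 0.05 for both cargos, St3gal5, Tnf, Il1a, Ccl2, Ccl3, up to 6 genes by the difference between cargos, and list members singled out beside a count. The remaining members were added, except 1 that is not reported here, and F3, Srms, Neb and Spock2 were chosen on their values. Alternatives were DESeq2, other scaling, filters, thresholds, references and covariates, limma on TPM, a replicate block and leaving out each library. The labels do not state litters, so p-values measure the spread between livers. Replicate numbers were not found to pair the livers. No libraries were identical.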

Additional observations from a re-analysis of the deposited data

Results flagged for a closer look

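The cargos differed by edgeR's test in 17 of the 53 genes named by rule, near the 29.9% of all genes tested at adjusted p alone. Up to 6 of the 53 were named because the cargos differed in them. The count is therefore not a result about the named genes. The log2 difference, rAAV9.CB.ST3GAL5 minus E332K, was positive for Ccl2 (5.54), Sprr1a (4.18), Tnf (3.90), Ccl3 (3.63), Cldn4 (3.21), Il1a (1.95), Timp1 (1.52), Atf3 (1.27) and Tnfrsf12a (1.09). It was negative for Creld2 (-3.13), Sdf2l1 (-3.05), Trib3 (-2.94), Ddit3 (-2.14), Nupr1 (-1.70), Slc25a48 (-1.31), Dnajb9 (-1.16) and Fdps (-0.91). Adjusted p ranged from 1.98e-06 for Sdf2l1 to 0.0166 for Slc25a48, and of these 17 only Slc25a48 lost its call in a fit that left out 1 library, without replicate 2 of rAAV9.CB.ST3GAL5 (-0.97).

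Single livers stood far from the other 3 of their group in 18 of 212 group tests of these genes. Chance alone flags about 1 group in 20, but that rate does not hold where the other 3 livers held 0, as in Orm2 and Arfgef3. Such a group is always flagged. The cargo groups, of 3 livers each, were not tested in this way. Among EGFP livers, replicate 4 was high in Saa2 (0.479 CPM, others at most 0.115) and Orm1 (7.09 CPM, others at most 1.44), replicate 3 was high in Sprr1a (1.92 CPM) and low in Igf1 (78.3 CPM, others at least 103), replicate 1 was high in Slc25a15 (203 CPM) and replicate 2 in Sqstm1 (258 CPM). Among Syn1 livers, replicate 2 was high in Orm2 (0.183 CPM, others 0) and Saa3 (2.86 CPM), replicate 3 was high in Trib3 (7.02 CPM) and low in Slc22a7 (1.54 CPM), replicate 4 was low in Chac1 (0.349 CPM) and replicate 1 in Nupr1 (1.81 CPM). Among livers without a vector genome, PBS replicate 2 was high in Timp1 (1.77 CPM) and low in Hid1 (2.07 CPM), PBS replicate 1 was high in Sprr1a (0.404 CPM), PBS replicate 3 in Arfgef3 (0.131 CPM) and AAV9.empty replicate 3 in Orm2 (0.0543 CPM), and PBS replicate 4 was low in Cyp2a4 (2.90 CPM).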

How the results depend on the processing

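The counts of 31 genes that rose and 14 that fell with both cargos ranged from 24 to 36 and from 1 to 18 when 1 library was left out, both lowest without replicate 3 of E332K. The second count was 8 or 9 without EGFP replicate 2 or 4 or E332K replicate 1 or 2. The pooled counts of 208 and 66 ranged from 118 to 301 and from 37 to 115 (118 and 125 higher without replicate 2 and 1 of rAAV9.CB.ST3GAL5, 37 lower without its replicate 1, 103 and 115 lower without replicate 1 and 3 of E332K), the 1155 genes that differed between the cargos from 757, without replicate 2 of rAAV9.CB.ST3GAL5, to 1452, and the 25 genes in all 4 contrasts from 17 to 29. The pooled change of St3gal5 ranged from -0.24 to -0.11 in those fits and reached -0.27 with an erythroid score as a covariate, with no call in any setting. The pooled lower count was 131 with DESeq2 1.42.0, 155 in one fit with 4 levels, 179 with all 22 libraries in one fit and 130 with the presence of Gm47283 as a covariate. With replicate numbers as a block, the pooled counts were 56 and 26 and 7 genes fell with both cargos, while 34 of the 45 remained. In the check of pairing, 19 pairs of livers that share a number had a median correlation of 0.0071 (4 over 0.1), against 0.019 in 54 other pairs, so the numbers were not taken to pair the livers. With limma 3.58.1 on log2(TPM + 1) for a mean TPM of at least 1, the pooled counts were 52 and 26, the joint counts 17 and 3, the difference between cargos 684 and all 4 contrasts 14. Without that filter these were 37, 14, 17, 2, 660 and 14, and with a pseudocount of 0.1 the pooled higher count was 72 and 7 fell with both. These TPM fits moved the median of all genes for rAAV9.CB.ST3GAL5 by 0.136 to 0.15 on the log2 scale, and Col8a2 turned to 0.0203 for that cargo without the filter (adjusted p = 0.976, against 0.00079 to 0.0736 in the other settings). With no minimum fold change the pooled counts were 678 and 404, the joint counts 159 and 62, the difference between cargos 4391 and all 4 contrasts 79. At an adjusted p of 0.01 they were 72 and 19 for the pooled contrast, 5 genes that fell with both and 15 in all 4. With the EGFP livers alone as reference, 39 and 30 genes passed in the pooled contrast and 26 fell with both. With the Syn1 livers alone, 12 and 0 passed and 0 fell with both, while 22 of the 45 remained. Between pairs that share no library, rAAV9.CB.ST3GAL5 with EGFP and E332K with Syn1, 4 fell with both, and 4 fell between livers alike in Gm47283, where 22 of the 45 remained. The cause of these shifts was not tested.

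Of the 31 risers 20 held in all 14 fits that left out a library and 15 in all 18 other settings, and 14 held in every one: Atf3, Ccl5, Chac1, Cidec, Ddit3, Kdelr3, Nupr1, Orm1, Orm2, Saa1, Saa2, Saa3, Timp1 and Trib3. Among fallers these counts were 1 and 0. Of the single-gene values recomputed, 4355 kept direction and side of the threshold, 355 lost the call, 9 gained it and 1 turned. Groups of 3 or 4 livers limited what could be detected.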
